A study of Mus musculus with 15 samples.

Results

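Early innate lymphoid progenitors (EILP) are bone marrow cells on the way from lymphoid progenitors to innate lymphoid cells (ILC), and here they were sorted into a committed fraction, c-EILP, and a specified fraction, s-EILP. The comparison holds 5 of the 15 bulk RNA-seq libraries of the series: 3 of c-EILP and 2 of s-EILP, chosen by their sort labels. Both fractions came from C57BL/6 mice whose genotype is given as Tcf7GFP Zbtb16GFP, and both were sorted as Lin- Kit+ 2B4+ a4b7+ Tcf7+ Thy1- cells. The c-EILP cells were also Zbtb16high Flt3low, and the s-EILP cells Zbtb16low Flt3high. The question the design poses is which genes separate the fractions of a single progenitor gate.

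Other libraries serve as landmarks. Unsplit EILP (3 libraries, Tcf7EGFPnull/+, so with 1 null Tcf7 allele) came from the gate before the split. All-lymphoid progenitors (ALP, 3 libraries, Tcf7EGFP/+) were a4b7- Flt3high IL-7Ra+ cells, and ILC progenitors (ILCP, 2 libraries, Tcf7EGFP/+) were Thy1+ IL-7Ra+ cells of the a4b7+ Tcf7+ gate. These landmarks carry other reporter alleles than c-EILP and s-EILP, so stage and strain cannot be told apart between them and either fraction. Age and sex of the mice are not given in the labels, nor is whether animals were pooled or replicates came from separate animals, so p-values measure the spread between these samples.

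ILC are tissue lymphocytes that carry no rearranged antigen receptor and answer to cytokines. They arise from lymphoid progenitors that switch on a set of transcription factors shared in part with T cells, among them TCF-1 (gene Tcf7), TOX, GATA3, ID2 and PLZF (gene Zbtb16). Progenitors that have begun this programme can still give other fates, dendritic cells included, and FLT3 is a receptor tyrosine kinase of multipotent, lymphoid and dendritic cell progenitors that is lost on the way.

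All values are log2 CPM (reads per gene scaled to a common library total), not per gene length, so levels of different genes are not set against each other. The lowest value differs by library, from -4.83 to -4.41, and many genes share it; for a gene at that value, a level could not be told from none. A "fitted difference" is the c-EILP minus s-EILP estimate of a limma model with group and batch as terms over all 15 libraries. These include 2 libraries of Tcf7-null EILP, which are not described here but enter the batch term and the estimate of spread. Since the batch term is estimated from every group, the fitted difference can depart from the plain difference of the means. In the bulk samples, fewer cells of a kind and less RNA per cell cannot be told apart.

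No gene passed an adjusted p of 0.05 (limma, Benjamini-Hochberg): 0 of 12572 tested, or 0.0%, and the smallest adjusted p was 0.102 for Angptl2. An unadjusted p under 0.05 was met by 647 genes (5.15%), of which 324 were higher in c-EILP (2.58%) and 323 lower (2.57%), so the total share lay close to the threshold itself. The libraries of the fractions did not overlap and stood at least 1 log2 unit apart in 1181 genes (9.39%), 592 higher in c-EILP (4.71%) and 589 lower (4.69%). An exact permutation test of 3 libraries against 2 cannot go below 0.1. The single-gene results below are therefore given as values with their unadjusted p, and none is a call.

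The whole transcriptomes of the fractions lay close together. Among 5887 genes with a mean above 5, the median absolute difference was 0.292 to 0.316 between c-EILP libraries, 0.267 between the s-EILP libraries, and 0.282 to 0.357 across the fractions. The c-EILP 2 library was the nearest to s-EILP, at 0.307 from s-EILP 1 and 0.282 from s-EILP 2. Some single libraries stood apart. The c-EILP 3 library is the only one of the 5 in batch 2, had Xist at the lowest value where the other 4 libraries had 3.35 to 4.67, and had S100a8 and S100a9, granule proteins of neutrophils, at 7.77 and 7.79. The 11 neutrophil genes measured summed to 1010 CPM in c-EILP 3, against 5.13 and 17.7 CPM in the other c-EILP libraries and 17.4 and 30.3 CPM in s-EILP. The immunoglobulin gene Igkc had -4.77, -4.83 and -0.44 in c-EILP and -0.72 and 8.99 in s-EILP, and the 6 plasma cell genes measured summed to 177 to 236 CPM in c-EILP and 273 and 1408 CPM in s-EILP. Xist and the Y-linked gene Uty were both present in c-EILP 1 and 2 and in both s-EILP libraries. The part of batch, sex and these transcripts in the results was not tested; counts of the main gene lists below are followed by their values without single libraries.

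The genes behind the gate separated the fractions in the labelled direction, which checks the sort and is not a finding. Zbtb16, which encodes PLZF (chromosome 9, 48651797 to 48836225, GRCm38.p6), had 6.96, 6.80 and 6.71 in c-EILP and 4.28 and 4.60 in s-EILP. Flt3 (chromosome 5, 147330741 to 147400489) had 6.69, 8.26 and 6.98 in c-EILP and 9.47 and 8.78 in s-EILP, so that c-EILP 2 and s-EILP 2 were the nearest pair. Across stages, Zbtb16 averaged -4.65 ± 0.16 in ALP, 4.44 ± 0.23 in s-EILP, 6.83 ± 0.12 in c-EILP and 6.97 ± 0.49 in ILCP (SD, n = 3, 2, 3 and 2). Flt3 ran the other way over the same stages, from 10.68 ± 0.26 in ALP through 9.12 ± 0.49 in s-EILP and 7.31 ± 0.84 in c-EILP to 1.92 ± 2.92 in ILCP.

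Of the gate genes that were not used to split the cells, Tcf7 and Kit met an unadjusted p under 0.05. Tcf7 (chromosome 11, 52246527 to 52283383), the TCF-1 gene that marks entry into the ILC and T cell paths, had 11.34, 11.06 and 11.14 in c-EILP and 9.98 and 10.23 in s-EILP. Its fitted difference was 0.99 ± 0.33 (SE), with an unadjusted p of 0.0106, and 1.09 in the batch 1 libraries alone. Kit, the stem cell factor receptor, had 9.55, 9.24 and 10.12 in c-EILP and 7.91 and 8.60 in s-EILP, a fitted difference of 1.35 ± 0.45 (unadjusted p = 0.0115). Neither gene overlapped between the fractions. By contrast Itga4, the a4 integrin chain, had 9.65, 9.85 and 9.58 in c-EILP and 9.71 and 9.76 in s-EILP, and Cd244, which encodes 2B4, had 6.62, 6.65 and 6.68 in c-EILP and 7.34 and 6.63 in s-EILP. Il7r, the interleukin 7 receptor chain, had 7.59, 6.85 and 6.70 in c-EILP and 6.03 and 6.56 in s-EILP. The groups did not overlap but came close to each other. Its fitted difference over all libraries was 0.23 (unadjusted p = 0.929). A limma fit of these 5 libraries alone gave 0.75 (unadjusted p = 0.0651, adjusted p = 0.613). Thy1, which the gate excludes, was at or near the lowest value in all c-EILP libraries, against 1.46 and the lowest value in s-EILP, a fitted difference of -2.46 ± 1.86 (unadjusted p = 0.209).

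**Figure D1:**
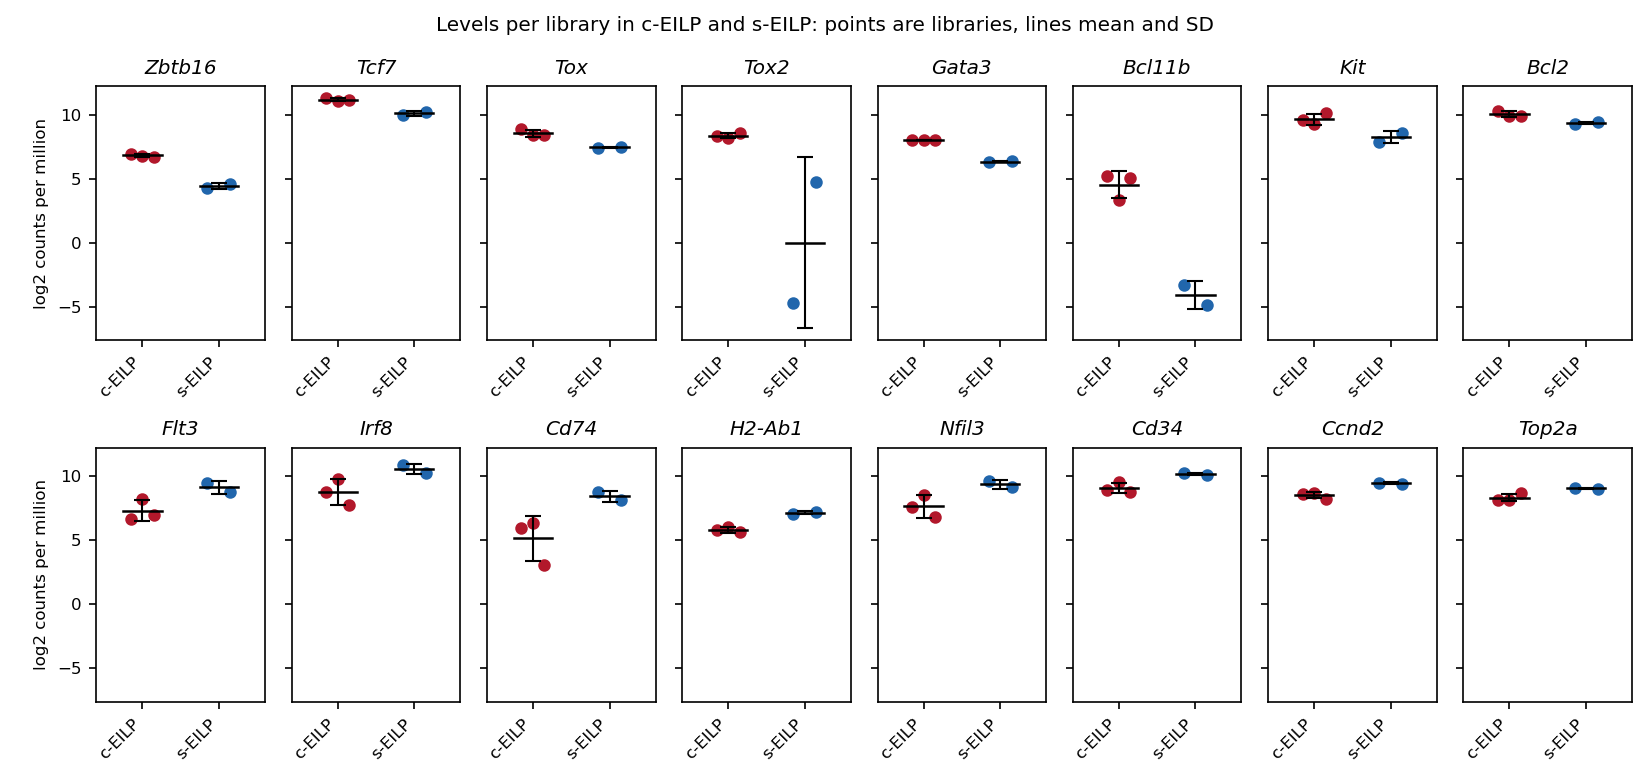
Each panel plots 1 gene in log2 CPM for the 3 c-EILP libraries (left, red) and the 2 s-EILP libraries (right, blue), with bars for the mean and SD. The libraries do not overlap in any panel; the top row holds genes higher in c-EILP and the bottom row genes lower, and Tox2 is listed at the lowest value in s-EILP 1 and Bcl11b in s-EILP 2.

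Several transcription factors of the ILC path were higher in c-EILP. Of 23 measured ILC regulators, 6 were higher in c-EILP at an unadjusted p under 0.05 (26.1%, against 2.58% of all genes) and 1 was lower (4.35%, against 2.57%), with a median difference of 0.95, against -0.02 over all genes. Zbtb16 and Tcf7 are among the 6 and belong to the gate; of the other 21, 4 were higher and 1 lower, with a median of 0.62. In 11 of the 23 all c-EILP libraries lay above both s-EILP libraries, where 11.5% of all genes did, and in 2 they lay below (13.2% of all genes). Without Zbtb16 and Tcf7 they lay above in 9 of 21 and below in 2. Without s-EILP 1 the list had 4 higher and 0 lower; leaving out any other single library gave 5 to 8 higher, and batch 1 alone 10 higher and 2 lower. Over all genes batch 1 alone gave 541 higher and 561 lower, against 324 and 323 in the fit over all libraries. List counts from batch 1 alone, here and below, thus have a higher background. Summed over the list, c-EILP had 6151, 5214 and 4787 CPM and s-EILP had 3026 and 3210 CPM, between 723 ± 70.1 CPM in ALP and 11480 ± 1949 CPM in ILCP. Without Zbtb16 and Tcf7 the sums were 3435, 2962 and 2423 CPM in c-EILP and 1996 and 1983 CPM in s-EILP.

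Tox, which encodes an HMG-box factor needed for ILC development, had 8.86, 8.38 and 8.38 in c-EILP and 7.43 and 7.50 in s-EILP, a fitted difference of 0.95 ± 0.27 (unadjusted p = 0.00376). Its relative Tox2 had 8.32, 8.21 and 8.56 in c-EILP, but -4.72 (the lowest value) and 4.75 in s-EILP. The 2 s-EILP libraries thus disagreed with each other on Tox2 while both lay well under c-EILP. Bcl11b (chromosome 12, 107910403 to 108004145), a zinc finger factor of T cells and of group 2 ILC, had 5.23, 3.33 and 5.03 in c-EILP and -3.29 and -4.83 in s-EILP, with a fitted difference of 8.35 ± 1.54 (unadjusted p = 0.000155). It was near or at the lowest value in all ALP libraries and had 7.42 and 8.35 in ILCP, so c-EILP lay at an intermediate level. Runx3, a runt-domain factor of cytotoxic and innate lymphocytes, had 8.31, 7.82 and 7.94 in c-EILP and 7.21 and 7.60 in s-EILP.

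Gata3 and Rora separated the fractions without overlap but did not reach an unadjusted p of 0.05 in the model over all libraries. Gata3, a zinc finger factor that T cells and ILC both need, had 8.01, 8.01 and 8.02 in c-EILP and 6.31 and 6.38 in s-EILP. Its plain difference was 1.67, its fitted difference 1.24 ± 0.78 (unadjusted p = 0.139), and a limma fit of these 5 libraries alone gave 1.67 with an unadjusted p of 1.498e-05 and an adjusted p of 0.136. Rora, a nuclear receptor of group 2 ILC, had 8.44, 7.70 and 7.42 in c-EILP and 4.52 and 4.61 in s-EILP, a fitted difference of 2.81 ± 2.14 (unadjusted p = 0.214) and 3.51 in batch 1 alone. The standard error in the model draws on the spread within all groups of the 15 libraries, not on c-EILP and s-EILP alone. Unsplit EILP had 5.85, 7.59 and 7.68 for Rora. Which groups set the size of this error was not tested. Ets1, an ETS factor of lymphocytes, had 7.24, 7.10 and 6.62 in c-EILP and -1.71 and 5.87 in s-EILP.

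The regulators whose c-EILP libraries all lay below s-EILP were Nfil3 and Pparg. Pparg, a nuclear receptor of group 2 ILC, was at the lowest value in all c-EILP libraries and had 1.46 and 0.22 in s-EILP. Nfil3, a basic leucine zipper factor needed early in ILC development, had 7.63, 8.55 and 6.79 in c-EILP and 9.60 and 9.13 in s-EILP, a fitted difference of -1.61 ± 0.59 (unadjusted p = 0.0183). Its level was 5.46 ± 0.72 in ALP and 5.70 ± 0.86 in ILCP, so s-EILP held the highest mean of the 4 stages. Id2, the helix-loop-helix inhibitor on which all ILC depend, had 9.41, 9.10 and 8.33 in c-EILP and 8.37 and 8.24 in s-EILP, and c-EILP 3 overlapped with s-EILP 1.

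ILC surface and effector genes were mixed: of 28 measured, 2 were higher at an unadjusted p under 0.05 (7.14%, against 2.58% of all genes) and 1 lower (3.57%, against 2.57%). The median was -0.30, and it ran from -0.39 without c-EILP 2 to 0.10 without s-EILP 2, with 2 or 3 higher and 1 to 3 lower. Il2rg, the common cytokine receptor chain, had 7.55, 7.59 and 7.43 in c-EILP and 6.62 and 6.64 in s-EILP, a fitted difference of 0.88 ± 0.26 (unadjusted p = 0.00542). Arg1, the arginase of group 2 ILC, had 3.66, 4.06 and 2.31 in c-EILP and sat at the lowest value in s-EILP 1 and 2. Pdcd1, which encodes PD-1, a receptor found on ILC progenitors, had 8.77, 7.93 and 8.22 in c-EILP and 4.27 and 6.02 in s-EILP (unadjusted p = 0.0647). Il1r1, an interleukin 1 receptor, was lower, with 5.84, 6.56 and 5.48 in c-EILP and 7.42 and 7.87 in s-EILP, a fitted difference of -1.53 ± 0.33 (unadjusted p = 0.000639). Among 15 NK and cytotoxic genes, 0 were higher and 1 was lower (6.67%; 0 without s-EILP 2 and 2 without s-EILP 1): Klrb1f, a C-type lectin receptor, with 4.91, 5.41 and 4.39 in c-EILP and 6.08 and 6.62 in s-EILP.

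Some genes of the T cell lineage were also higher in c-EILP. Of 21 measured, 6 were higher at an unadjusted p under 0.05 (28.6%, against 2.58% of all genes) and 0 were lower (against 2.57%). The median was 0.74, or 0.33 without the genes that had a whole group at the lowest value. The 6 were Txk, Themis, Cd247, Camk4, Lck and Hes1. With single libraries left out, the count was 2 without c-EILP 2, 3 without s-EILP 1, c-EILP 1 or c-EILP 3, and 4 without s-EILP 2. The kinase gene Txk had 5.10, 5.47 and 4.03 in c-EILP and sat at the lowest value in s-EILP 1 and 2. Themis, a T cell receptor signalling protein of thymocytes, had 5.25, 4.90 and 5.39 in c-EILP and -3.29 and 2.33 in s-EILP. Lck, the proximal kinase of T cell receptor signalling, was present in both fractions, at 8.37, 8.54 and 8.82 in c-EILP and 7.87 and 7.88 in s-EILP. Hes1, a target of Notch, had 6.67, 6.42 and 6.42 in c-EILP and 2.62 and 3.87 in s-EILP, a fitted difference of 3.18 ± 1.32 (unadjusted p = 0.0328). On the Notch list of 10 measured genes, Hes1 was the 1 higher (10.0%, against 2.58% of all genes). Without c-EILP 1 or c-EILP 2 the count was 0. Another 1 was lower (10.0%, against 2.57%), Lfng, a glycosyltransferase that modifies Notch. Lfng had 3.57, 3.30 and 4.52 in c-EILP and 5.14 and 4.91 in s-EILP. The CD3 genes were not part of this: Cd3e, for one, had -0.01, 0.98 and -4.83 in c-EILP and -2.75 and 3.45 in s-EILP, which overlap.

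Transcripts of the T cell receptor loci had the highest share of members past the unadjusted threshold among the groups measured. They were gathered by symbol after values had been seen, 29 segments in all. Of these, 16 were higher in c-EILP at an unadjusted p under 0.05 (55.2%, against 2.58% of all genes) and 0 lower (against 2.57%). The median was 3.93, or 4.21 without segments that had a whole group at the lowest value. In 20 of the 29 all c-EILP libraries lay above both s-EILP libraries (11.5% of all genes), and in 0 they lay below (13.2% of all genes). Neighbouring segments can share reads, so the 29 are not independent of each other. The group summed to 1293, 884 and 1202 CPM in c-EILP, against 70.6 and 176 CPM in s-EILP. The same sum averaged 11.6 ± 5.2 CPM in ALP and 2571 ± 44.2 CPM in ILCP, and 671 ± 541 CPM in unsplit EILP. Leaving out single libraries gave 8 segments higher without s-EILP 1 (with 1 lower), 12 without c-EILP 1 and 15 or 16 without any other.

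Of the 16 segments, 7 belonged to the gamma locus and 9 to the beta locus. Tcrg-C4, a gamma constant gene, had 7.58, 6.86 and 7.45 in c-EILP and -2.85 and 3.50 in s-EILP, a fitted difference of 6.81 ± 1.58 (unadjusted p = 0.00104). Trbc1, the first beta constant gene (chromosome 6, 41538219 to 41539665), had 8.57, 7.90 and 8.60 in c-EILP and 4.02 and 5.29 in s-EILP, a fitted difference of 3.56 ± 1.11 (unadjusted p = 0.00765). Its joining segment Trbj1-1 had 6.18, 5.40 and 6.33 in c-EILP and -0.08 and 2.22 in s-EILP. All 7 Trbj1 segments measured had an unadjusted p under 0.05. The only Trbj2 segment tested, Trbj2-1, had -1.24, -3.94 and -4.06 in c-EILP and -3.29 and -3.86 in s-EILP, which overlap. Tcrg-C1 did not overlap either, with 8.50, 8.43 and 8.02 in c-EILP and 4.75 and 6.18 in s-EILP, but missed the threshold (unadjusted p = 0.214). The alpha constant gene Trac had -1.41 in c-EILP 1 and the lowest value in the other c-EILP libraries, against -0.03 and the lowest value in s-EILP. Rag1 was at the lowest value in both groups, and Rag2, the other recombinase gene, had -4.77, 1.96 and 1.35 in c-EILP and 2.99 and 4.04 in s-EILP.

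**Figure D2:**
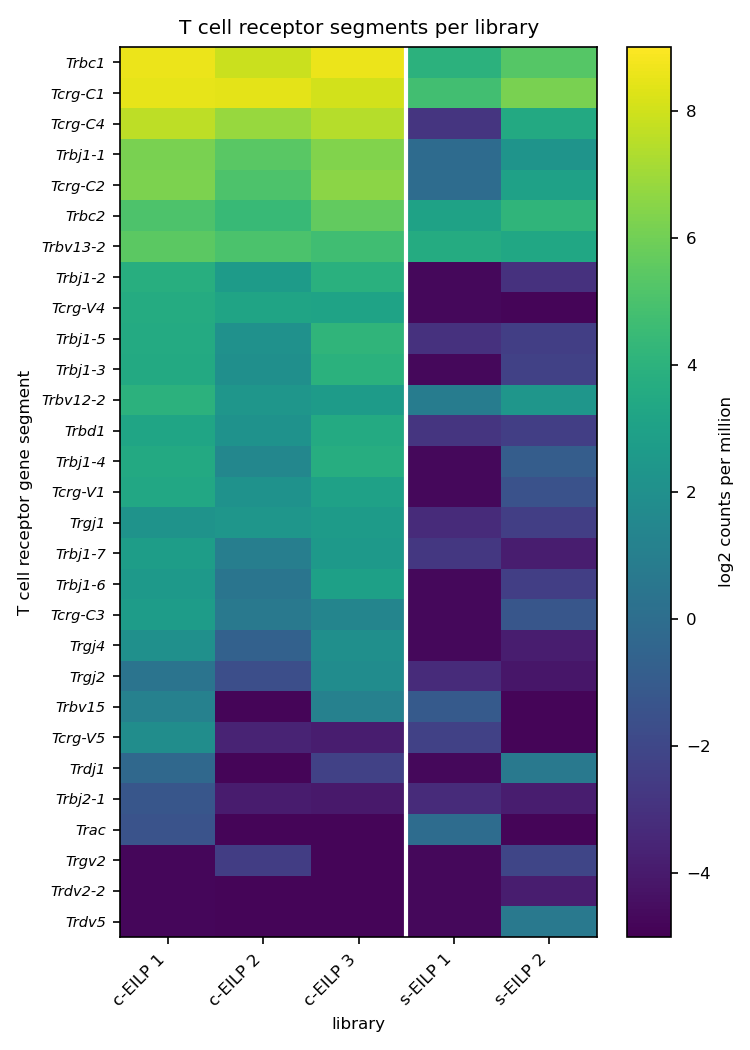
Rows are the 29 T cell receptor segments, sorted by their c-EILP mean, columns the 3 c-EILP and 2 s-EILP libraries (split by a white line), and colour is log2 CPM. The rows of Trbc1, Tcrg-C1 and Tcrg-C4, near the top, are brighter in every c-EILP library than in either s-EILP library. Trac near the bottom is dark in most libraries.

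Single members of further lists were higher in c-EILP. Bcl2, which blocks apoptosis, had 10.29, 9.91 and 9.88 in c-EILP and 9.28 and 9.40 in s-EILP. Its fitted difference was 0.66 ± 0.19 (unadjusted p = 0.0038). It was the 1 of 15 Bcl2 family genes at an unadjusted p under 0.05 (6.67%, against 2.58% of all genes). Sox4, an HMG-box factor of lymphoid progenitors, had 9.27, 9.29 and 9.27 in c-EILP and 8.57 and 8.74 in s-EILP, a fitted difference of 0.72 ± 0.18 (unadjusted p = 0.00181). Mycn, a MYC family factor, had 8.28, 8.23 and 8.44 in c-EILP and 7.09 and 7.41 in s-EILP. Tgfbr2, a TGF-beta receptor chain, had 6.29, 5.80 and 5.56 in c-EILP and 4.90 and 4.36 in s-EILP. Of 23 receptor tyrosine kinase and cytokine receptor genes, the c-EILP libraries lay below both s-EILP libraries in 9 (13.2% of all genes) and above them in 6 (11.5%). The median was -0.51. Of the 20 that were not gate genes, 2 were higher (10%) and 0 lower at an unadjusted p under 0.05. Of all 23, 3 were higher (Kit, Il2rg and Tgfbr2, 13.0%, against 2.58% of all genes) and 0 lower. The count was 2 without s-EILP 1, s-EILP 2 or c-EILP 1. Of 21 Wnt and TCF pathway genes, 1 was higher (Tcf7 itself, a gate gene, 4.76%, against 2.58% of all genes) and 0 were lower.

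Among the lists, dendritic cell genes had the highest share of members lower in c-EILP. Of 23 measured, 6 were lower in c-EILP at an unadjusted p under 0.05 (26.1%, against 2.57% of all genes) and 0 were higher, with a median of -1.16. All c-EILP libraries lay below both s-EILP libraries in 10 of the 23 (13.2% of all genes) and above them in 1 (11.5% of all genes). Flt3, on the list, belongs to the gate; it is not among the 6 but is among the 10. Without it the list summed to 1111, 1592 and 696 CPM in c-EILP and 3432 and 2353 CPM in s-EILP, and 9 of 22 genes lay below. With Flt3 the sums were 1215, 1899 and 823 CPM in c-EILP and 4135 and 2791 CPM in s-EILP, against 4354 ± 771 CPM in ALP and 2535 ± 872 CPM in ILCP. Leaving out s-EILP 1 or c-EILP 1 cut the count to 3 lower (with 1 higher without c-EILP 1), c-EILP 3 to 4 and s-EILP 2 to 5; without c-EILP 2 it was 6, and in batch 1 alone 8.

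Irf8 (chromosome 8, 120736358 to 120756694), the interferon regulatory factor that directs dendritic cell and monocyte fates, had 8.79, 9.75 and 7.76 in c-EILP and 10.84 and 10.28 in s-EILP. Its fitted difference was -1.42 ± 0.35 (unadjusted p = 0.0016), and -1.29 in batch 1 alone. Batf3, a partner of Irf8 in conventional dendritic cells, had -1.24, -1.41 and -4.83 in c-EILP and 2.13 and 0.71 in s-EILP. Runx2, a runt-domain factor of plasmacytoid dendritic cells, had 4.42, 4.93 and 3.08 in c-EILP and 5.83 and 5.68 in s-EILP. Cd74, the invariant chain of MHC class II, had 5.96, 6.38 and 3.11 in c-EILP and 8.75 and 8.14 in s-EILP, a fitted difference of -2.85 ± 0.78 (unadjusted p = 0.0032) and -2.27 without the batch 2 library. H2-Ab1, a class II chain, had 5.78, 6.03 and 5.61 in c-EILP and 7.09 and 7.24 in s-EILP. In ILCP both genes lay above every c-EILP library, at 10.24 and 9.07 for Cd74 and at 8.59 and 7.51 for H2-Ab1, while ALP had 6.48, 7.48 and 4.70 for Cd74. Of the defining genes of mature dendritic cells, Clec9a was at the lowest value in all 5 libraries. Xcr1 was there in all but c-EILP 2, at -0.64, and Itgax in all but s-EILP 2, at 4.30.

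Promoter letters are shown for 3 transcription factor or receptor genes with no overlap between the fractions, 1 on the c-EILP side and 2 on the s-EILP side. For Flt3 and Irf8 they are the 250 bases before and 50 after the start of the gene as RefSeq lists it (GRCm38.p6). The Bcl11b window, as listed, has the same length but lies inside the gene span given above, not at its start. Capitals mark a match to the TCF/LEF motif. The motifs searched, on both strands, were CTTTGAT (reverse complement ATCAAAG) for TCF/LEF factors and GAGGAAGT (reverse complement ACTTCCTC) for PU.1; the 2 do not overlap each other.
Bcl11b, chr12:108003365-108003664, minus strand: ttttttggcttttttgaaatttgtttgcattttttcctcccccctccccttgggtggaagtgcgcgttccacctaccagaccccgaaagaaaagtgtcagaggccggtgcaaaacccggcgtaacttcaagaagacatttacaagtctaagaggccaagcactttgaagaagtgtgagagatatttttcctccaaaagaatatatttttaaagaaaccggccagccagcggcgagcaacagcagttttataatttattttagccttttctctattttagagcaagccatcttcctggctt
Flt3, chr5:147400440-147400739, minus strand: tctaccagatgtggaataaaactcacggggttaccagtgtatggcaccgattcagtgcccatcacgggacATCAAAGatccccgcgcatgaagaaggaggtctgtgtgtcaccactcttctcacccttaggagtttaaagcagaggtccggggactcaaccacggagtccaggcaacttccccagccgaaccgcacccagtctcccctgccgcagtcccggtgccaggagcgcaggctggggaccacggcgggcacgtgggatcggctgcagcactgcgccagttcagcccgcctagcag
Irf8, chr8:120736108-120736407, plus strand: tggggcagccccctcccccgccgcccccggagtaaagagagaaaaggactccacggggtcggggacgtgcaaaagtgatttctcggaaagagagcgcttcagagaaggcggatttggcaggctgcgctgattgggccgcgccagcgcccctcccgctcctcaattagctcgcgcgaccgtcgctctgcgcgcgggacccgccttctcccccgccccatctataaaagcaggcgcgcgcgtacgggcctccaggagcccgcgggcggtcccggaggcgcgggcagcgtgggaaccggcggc
Flt3 held 1 TCF/LEF match, on the strand opposite to the gene, and the Bcl11b and Irf8 windows held none of either motif. Of 27025 promoters of this length, 3.72% held the TCF/LEF motif and 3.28% the PU.1 motif. Among the genes that stood at least 1 log2 unit apart without overlap and had a promoter in the table, the TCF/LEF motif was in 2.43% of 411 on the c-EILP side and 2.33% of 429 on the s-EILP side. The PU.1 motif was in 1.7% and 3.73% of the same genes.

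Of 25 myeloid genes, 2 were lower (8.0%, against 2.57% of all genes) and 1 higher (4.0%, against 2.58%), with a median of -0.60. The lower count was 0 without s-EILP 1, s-EILP 2, c-EILP 1 or c-EILP 3 and 4 without c-EILP 2, and the median ran from -0.85 to -0.08. Csf3r, the G-CSF receptor, had 5.21, 5.68 and 5.07 in c-EILP and 7.08 and 6.53 in s-EILP. Ncf1, a subunit of the phagocyte oxidase, had 7.84, 8.21 and 6.86 in c-EILP and 8.71 and 8.54 in s-EILP. The 1 higher gene, Lyz2, which encodes lysozyme, had 7.09, 6.58 and 9.32 in c-EILP and 5.63 and 5.83 in s-EILP, with its highest value in the library that also held neutrophil transcripts; its difference was 1.11 in the batch 1 libraries alone. Spi1, the PU.1 gene, had 6.79, 7.52 and 5.68 in c-EILP and 7.72 and 7.68 in s-EILP (unadjusted p = 0.458). Among 11 neutrophil genes 0 met the threshold in either direction.

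Genes of stem and multipotent progenitors split. Kit, on this list, belongs to the gate. Of the other 23 genes, 2 were higher at an unadjusted p under 0.05 (8.7%) and 2 lower (8.7%). Of all 24 measured, 3 were higher (Kit, Sox4 and Mycn, 12.5%, against 2.58% of all genes). Against these, 2 were lower (Cd34 and Mef2c, 8.33%, against 2.57%), and the median was -0.44. Without s-EILP 1 the counts were 1 and 1, and without s-EILP 2 they were 3 and 0. Cd34, a sialomucin of progenitors, had 8.93, 9.52 and 8.76 in c-EILP and 10.23 and 10.11 in s-EILP, on a course from 10.36 ± 0.22 in ALP to 4.45 ± 1.09 in ILCP. Mef2c, a MADS-box factor of lymphoid and dendritic progenitors, had 7.47, 7.57 and 6.67 in c-EILP and 8.54 and 8.41 in s-EILP. Cpa3, the mast cell carboxypeptidase, was high in both fractions at 10.34, 10.19 and 10.06 in c-EILP and 9.89 and 10.00 in s-EILP.

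Some cell cycle genes were lower in c-EILP by small amounts. Of 28 measured, 5 were lower at an unadjusted p under 0.05 (17.9%, against 2.57% of all genes) and 0 higher, 23 had a negative difference, and the median was -0.31. All c-EILP libraries lay below both s-EILP libraries in 12 of them (13.2% of all genes) and above in 0 (11.5% of all genes). The list summed to 6518, 6473 and 7665 CPM in c-EILP and 8256 and 8638 CPM in s-EILP. Top2a, the topoisomerase of dividing cells, had 8.18, 8.13 and 8.67 in c-EILP and 9.09 and 9.02 in s-EILP, a fitted difference of -0.77 ± 0.25 (unadjusted p = 0.0101). The other 4 were Tyms, Rrm2, Ccnb1 and Ccnb2, with fitted differences of -0.69, -0.56, -0.83 and -0.65. Ccnd2, a D cyclin, counted in a list of its own, had 8.64, 8.72 and 8.23 in c-EILP and 9.50 and 9.42 in s-EILP, a fitted difference of -0.84 ± 0.24 (unadjusted p = 0.00378). The count of 5 was 1 without s-EILP 1, 2 without c-EILP 1, 3 without c-EILP 2 and 4 without c-EILP 3 or s-EILP 2.

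Interferon response genes had 3 of 21 lower (14.3%, against 2.57% of all genes) and 0 higher, with a median of -0.44. Mx1 was at the lowest value in all c-EILP libraries and had 1.46 and 2.19 in s-EILP, and Ifi44 had the lowest value in c-EILP 1 and 2 and 1.45 in c-EILP 3, against 3.30 and 3.90 in s-EILP. Leaving out any 1 library left 0 to 2 lower, with 0 lower and 1 higher without s-EILP 2. Ribosomal protein genes (83) and mitochondrially encoded genes (11) had 0 members past the threshold in either direction, with medians of -0.07 and -0.08. Integrin and homing genes (24) also had 0. Single members met it, higher in c-EILP, among 15 B lineage genes (Vpreb3, 6.67%) and 17 erythroid and megakaryocyte genes (Gata1, 5.88%). The same held for 17 TNF family genes (Tnfsf10, 5.88%) and 12 early response genes (Btg2, 8.33%). Among 14 NF-kappaB genes 1 was lower (Nfkbid, 7.14%). Of all genes, 2.58% were higher and 2.57% lower at that threshold.

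**Figure D3:**
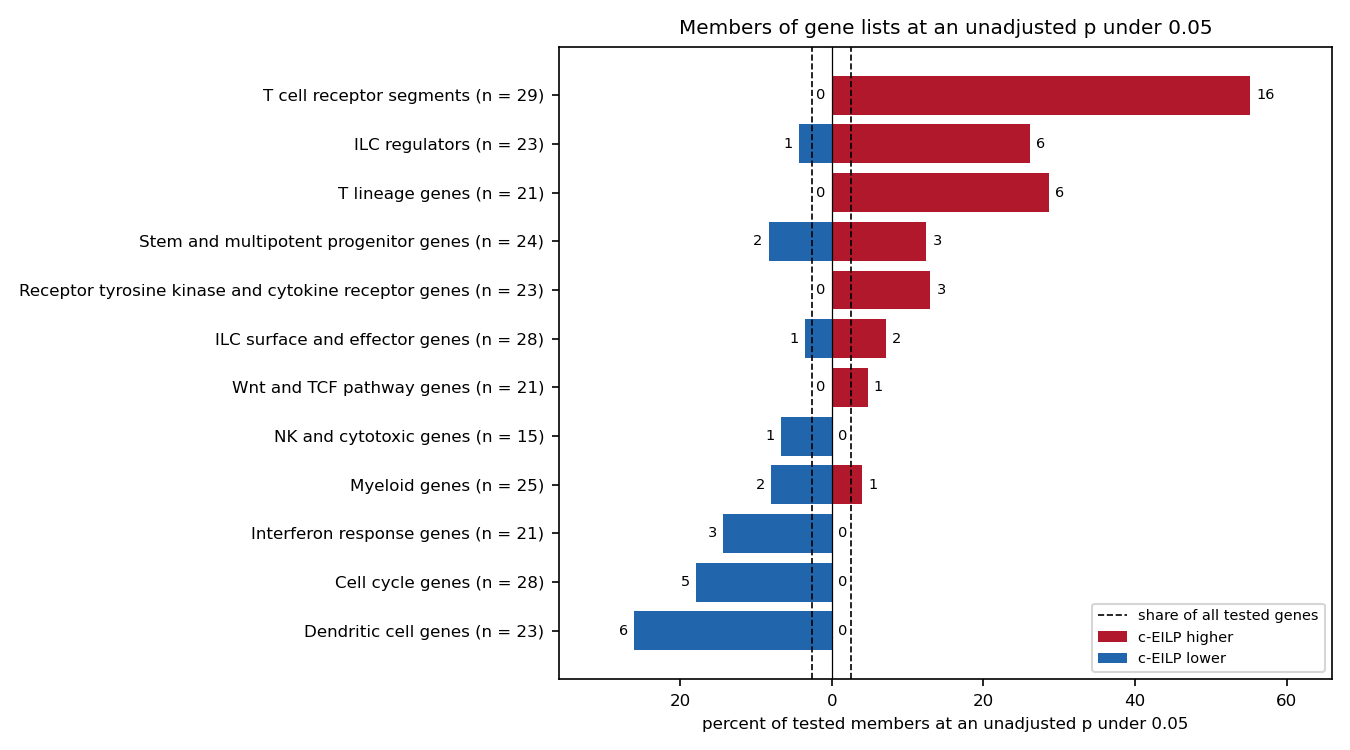
Bars give the percent of each list's tested members at an unadjusted p under 0.05, to the right for higher in c-EILP (red) and to the left for lower (blue), with the number of members at the bar's end and dashed lines for the share of all tested genes (2.58% and 2.57%). T cell receptor segments, T lineage genes and ILC regulators extend to the right, and dendritic cell, cell cycle and interferon genes to the left. The bar of ILC regulators counts Zbtb16 and Tcf7, which belong to the gate.

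Over all genes, in these lists or not, the 12 with the highest fitted differences at an unadjusted p under 0.05, without overlap, and with a mean above 4.75 in c-EILP were drawn from 158. They included genes that s-EILP listed at the lowest value in both libraries. Fgf15, a secreted fibroblast growth factor, had 6.69, 6.76 and 7.15 in c-EILP, and it had 5.27 in ILCP 2 but the lowest value in ILCP 1 and in all ALP libraries. Lrrc52, a leucine-rich repeat protein that accompanies potassium channels, had 6.16, 2.89 and 5.51 in c-EILP. Rxrg, a retinoid X receptor, had 7.02, 6.56 and 5.97 in c-EILP and 1.83 and -4.83 (the lowest value) in s-EILP, with 7.93 and 8.43 in ILCP. Eya2, a transcriptional coactivator and phosphatase, had 6.49, 5.92 and 6.10 in c-EILP and -3.29 and 3.58 in s-EILP, with 7.96 and 8.55 in ILCP. Txk, Tox2 and Themis, described above, were 3 of the 12. The remaining 5 were Ipcef1, Ano8, Zfp850, Snapc4 and Nol4l, each with 1 s-EILP library far under the other; Snapc4, for example, had 5.48, 5.14 and 6.11 in c-EILP and -4.72 and 4.77 in s-EILP.

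The 12 lowest, with a mean above the same level in s-EILP, came from 197. E2f7, a repressor of the cell cycle, was at the lowest value in c-EILP 1 and 3 and had 3.70 in c-EILP 2, against 5.01 and 4.69 in s-EILP. Tbc1d8, of a family of Rab GTPase-activating proteins, had -4.77, 3.93 and -4.06 in c-EILP and 5.59 and 5.35 in s-EILP. In both genes c-EILP 2 stood between the other c-EILP libraries and s-EILP. Mycl, a MYC family factor found in dendritic cells, had 2.62, 3.38 and 1.76 in c-EILP and 5.89 and 4.89 in s-EILP. Mpeg1, the perforin-like protein of macrophages and dendritic cells, had 3.99, 5.92 and 3.74 in c-EILP and 7.73 and 6.35 in s-EILP, with 8.79 ± 0.27 in ALP and 4.46 ± 0.46 in ILCP. Ifngr2, a chain of the interferon gamma receptor, had 2.36, 4.46 and 1.66 in c-EILP and 6.17 and 5.18 in s-EILP. Cd74, described above, was also among the 12, and the other 6 were Mctp1, Fyco1, Kcnk12, Nsl1, Ms4a4c and Rab33b, with fitted differences of -4.58, -3.29, -2.88, -2.75, -2.52 and -2.28.

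**Figure D4:**
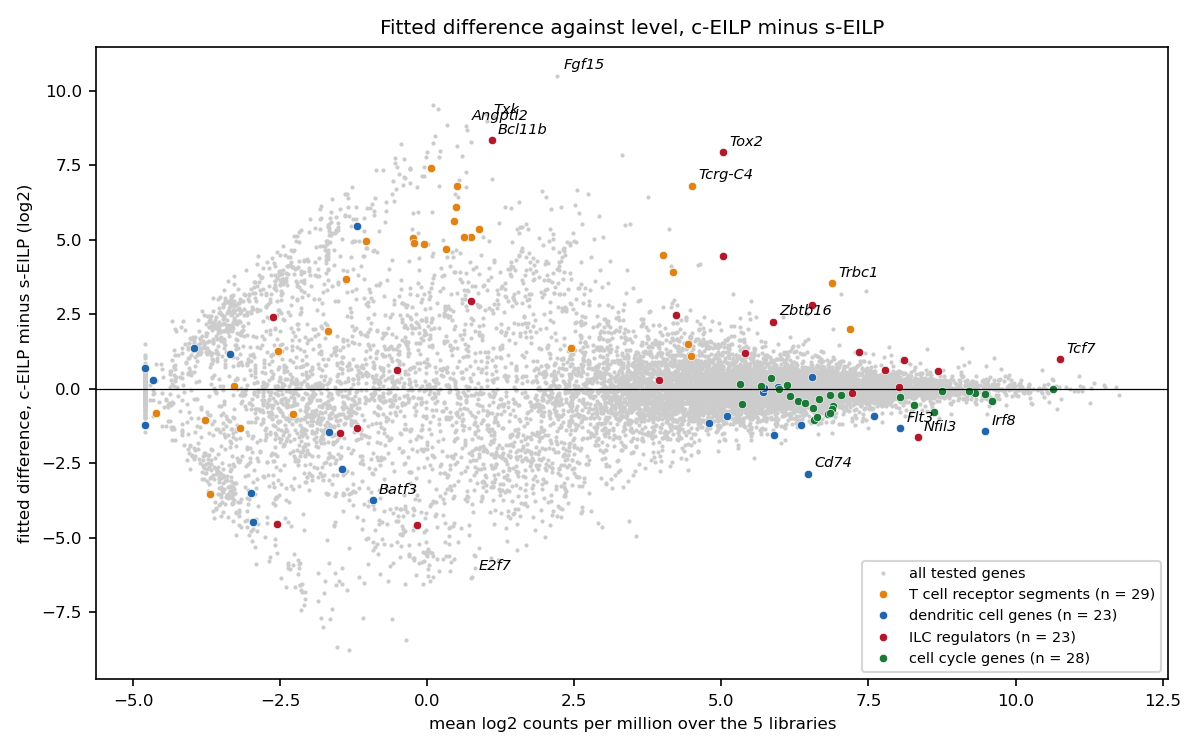
Each point is a tested gene, with the mean log2 CPM over the 5 libraries on the x axis and the fitted c-EILP minus s-EILP difference (log2) on the y axis; colours mark 4 gene groups. T cell receptor segments (orange) and ILC regulators (red) lie mostly above 0, dendritic cell (blue) and cell cycle genes (green) mostly below, and the spread widens at low levels, where genes with a whole group at the lowest value are included.

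For most separated genes the mean of unsplit EILP lay between the fraction means. These genes were chosen for the gap between c-EILP and s-EILP, so the mean of other libraries can fall inside it by selection alone. The same share was not taken for another group or for unselected genes. The counts therefore describe position and do not show that the gate is a mix of its fractions. Of the 592 genes higher in c-EILP by at least 1 log2 unit, the unsplit mean lay between the fraction means in 373, beyond s-EILP in 132 and beyond c-EILP in 87. For the 589 lower genes these counts were 364, 128 and 97. Against unsplit EILP itself, c-EILP had 0 genes at an adjusted p under 0.05 and 1031 at an unadjusted p under 0.05 (8.2%), and s-EILP had 0 and 598 (4.76%). The Tcf7 null allele of unsplit EILP goes with these values and its part was not tested.

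Genes that differ between the stages on either side of EILP were then read in the fractions, which share no library with ALP or ILCP. Both comparisons come from the same model, however, and share its batch term and its estimate of each gene's spread. Genes called between ILCP and ALP can therefore pass the threshold between the fractions more often, in either direction, so the shares below are a description. At an adjusted p under 0.05 (limma), 699 genes were higher in ILCP than in ALP (5.56%) and 988 lower (7.86%). Of the 699, the median c-EILP minus s-EILP difference was 0.16, 61.4% were positive, 79 were higher in c-EILP at an unadjusted p under 0.05 (11.3%) and 18 lower (2.58%). Of the 988, the median was -0.12, 36.3% were positive, 11 were higher (1.11%) and 64 lower (6.48%). Over all genes the median was -0.02, 48.3% were positive, and 2.58% and 2.57% met the threshold in each direction. Restricted to genes with a mean above 5, the medians were 0.11 for 399 genes and -0.10 for 662, against -0.02 for 5887.

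Averaged over the 699 genes, each library's level was 4.62, 4.46 and 4.41 in c-EILP and 3.83 and 3.94 in s-EILP, with 2.41 to 2.70 in ALP and 6.74 and 6.85 in ILCP. For the 988 genes it was 5.36, 5.58 and 5.38 in c-EILP and 5.79 and 5.79 in s-EILP, with 6.47 to 6.59 in ALP and 3.28 and 2.89 in ILCP. The fractions did not overlap on either average, and c-EILP stood on the ILCP side of s-EILP in both. Unsplit EILP had 3.96, 4.31 and 4.90 for the 699 genes and 5.64, 5.53 and 5.16 for the 988. Libraries of that gate thus ranged more widely than those of both fractions together. On both averages EILP 3 lay on the ILCP side of every c-EILP library. A strict order of all 4 stage means was less common: 78 of the 592 genes higher in c-EILP had ALP under s-EILP and c-EILP under ILCP, and 60 of the 589 lower genes had the reverse order. These genes were chosen for the gap between the fractions, which fixes part of the order. The share over all genes was not taken, so the counts cannot be told from background.

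**Figure D5:**
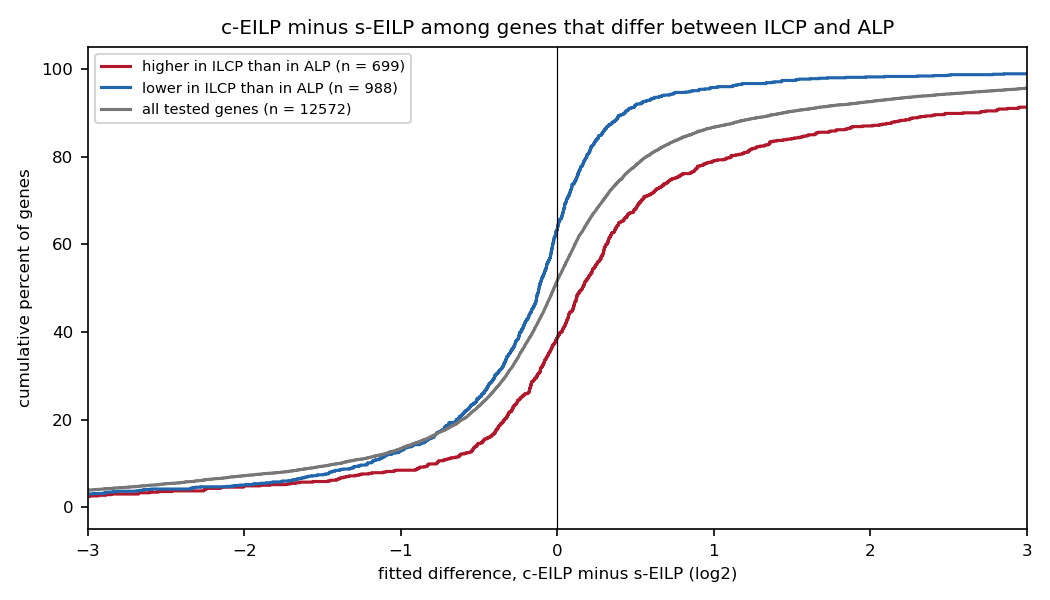
Cumulative percent of genes by their fitted c-EILP minus s-EILP difference (log2, x axis cut at 3 units on either side) for the 699 genes higher in ILCP than in ALP (red), the 988 lower (blue) and all 12572 tested (grey). The red curve lies to the right of the grey and crosses the middle near 0.16; the blue curve crosses it near -0.12.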

How the data were processed

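Per the labels' protocols, RNA of sorted mouse bone marrow cells was extracted with an RNeasy plus micro kit, and libraries were made with SMARTer Ultra Low Input and Nextera XT kits. Tools named in the submitters' processing notes are STAR 2.5.2b, RSEM 1.2.23, bcl2fastq 2.17 and limma, with build mm10; the annotation is not given in the sources used here. The deposited table holds log2 values for 12798 genes in 15 libraries; the unit, log2 CPM quantile-normalized by the authors, was read from the values, which sum to 998700 to 999300 after back-transformation. A further 24 columns without name or values were not used. Counts were not analysed here, so depth is unknown and no detection limit is given.

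The values were used as deposited. Genes at 0 or more in at least 2 libraries (12572) entered limma 3.58.1 (R 4.3.3), with group and batch as terms, all 15 libraries and an intensity trend; p-values were adjusted by Benjamini-Hochberg over all tested genes. The fit was tested on simulated data. Batch is the label of that name: s-EILP lies in batch 1 only, and 1 of 3 c-EILP libraries in batch 2. "No overlap" treats each library's lowest value as equal. For 873 genes all libraries of a group sit at that value, and their differences are not printed as folds.

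Members and gene lists were chosen with earlier results of these data known. Single genes were named by a rule: gate genes, the 12 highest and 12 lowest differences at an unadjusted p under 0.05 without overlap and above the median level (4.75) in the higher group, predicted and antigen receptor genes left out, and list members at that p or, otherwise, of high level. Others (Gata3, Rora, Ets1, Pdcd1, Spi1, Cpa3, the T cell receptor segments and markers of other cells) were chosen after their values were seen. Alternatives covered the libraries and batch term in the fit, each replicate left out, a replicate block, filters, 2 further normalizations, a floor at 0, the trend and array weights. A result on 1 gene is not reported here. Positions and promoters are RefSeq's for GRCm38.p6, the patch release of mm10.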

Additional observations from a re-analysis of the deposited data

How the results depend on the processing

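The count at an adjusted p under 0.05, 0 as reported, was 1 with no batch term and 1 with array quality weights (Angptl2 both times), 9 with no intensity trend, and between 0 and 7 with a library left out: 7 without s-EILP 2, with Tox2, Snapc4 and Tcrg-C4 among them, and 1 (E2f7) without c-EILP 2. The count at an unadjusted p under 0.05, 647 as reported, was 1112 with only the c-EILP and s-EILP libraries fitted, 1102 with batch 1 alone, 1158 with array quality weights and 343 with a filter at a log2 value of 5; with a library left out it ran from 418 (without s-EILP 1) to 679. The count of 1181 genes without overlap and at least 1 log2 unit apart was 313 with the filter at 5 and ran from 1655 to 2497 with a library left out (1806 without c-EILP 2, 2174 without s-EILP 1, 2497 without s-EILP 2); fewer libraries have fewer chances to overlap, and the filter tests fewer genes. The cause of the other shifts was not tested. The medians kept their direction under all 16 alternatives, from 0.0865 to 0.198 for genes higher in ILCP and from -0.152 to -0.0833 for genes lower.

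Whether replicate numbers pair the samples is not given in the labels. Over 5887 genes the difference between replicates 1 and 2 in c-EILP correlated with that in s-EILP at r = -0.02, across genes of 2 pairs. No shared replicate shift was seen, but this value cannot tell whether the samples are paired. With the replicate block the adjusted count was 0 and the unadjusted count 550, with medians of 0.156 and -0.129. Of 95 genes named with a difference or described by their values, 91 kept their direction in every alternative that gave them a value. Genes of low level had none with the filter at 5. Many of the 95 were named for a gap between these same libraries, so the alternatives could hardly reverse them. The count of 91 is therefore no independent check. Itga4 reversed to 0.0186 in batch 1 alone, 0.00211 with cyclic loess and 0.0145 with array quality weights, and reached 0.0295 with a library left out, against -0.0858 at the lowest; with a library left out Il7r ran from -0.403 to 0.926, Thy1 from -5.61 to 0.68 and Trac from -3.73 to 1.07.

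Limits: 2 s-EILP libraries set the spread of their group, depth is unknown, values near a library's lowest carry the widest errors (median SE 0.688 over all genes and 0.355 for genes with a mean above 5), and 1 c-EILP library is the only one in batch 2. Counts per gene list without single libraries were added after the data were seen.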
